A study of Mus musculus with 9 samples.

Results

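The genes described here are the output factors of the circadian clock that the deposited table holds for mouse gastrocnemius. They were chosen by symbol as Dbp, Tef, Hlf, Nfil3, Bhlhe40, Bhlhe41 and Ciart. All 7 were present among 13179 genes, and all 7 passed the filter on low values with 13137 genes tested. The study measured polyadenylated RNA of the gastrocnemius, a fast calf muscle, in 9 libraries from mice fed a high-fat diet for 6 weeks. The control group, the p38alphaMCK-KO group (here the p38α knockout, p38α KO in the plots) and the p38alpha/gammaMCK-KO group (the p38α/γ knockout, p38α/γ KO in the plots) had 3 libraries each. MCK stands for muscle creatine kinase, whose promoter is widely used to drive the Cre recombinase in skeletal and heart muscle, so that other cells of the muscle keep the kinases. The alleles of the controls, and the strain, sex and age of the mice, are not given in the sources used here, and neither is the hour at which muscle was taken. The labels number the libraries of each group without saying that each came from a separate animal, so the p-values speak only for the spread among libraries, which may be technical.

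The clock of each cell turns through a loop in which CLOCK and BMAL1 (the product of Arntl) bind E-boxes and drive their own repressors PER and CRY. The factors described here carry that rhythm to other genes. DBP, TEF and HLF, which have a proline- and acid-rich (PAR) domain beside a basic leucine zipper, activate genes through D-boxes, and NFIL3 (E4BP4) represses through the same sites. BHLHE40 and BHLHE41 (DEC1 and DEC2) and CIART (CHRONO) repress E-box genes, and several of the genes named here are themselves driven through E-boxes. Because these RNAs rise and fall over the day, a level in muscle taken at 1 time is 1 point on a daily curve.

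The E-boxes are shown because they are the element through which CLOCK and BMAL1 act. In the 250 bases before the start of each RefSeq gene (GRCm38.p6), 6 of the 7 genes had an entry, with 7 starts in all. The E-box letters CACGTG, which read the same on both strands, were found 3 times before Ciart and 1 time before each of Bhlhe41 and both starts of Tef, against 6.02% of 32851 windows of that length with at least 1 match. The windows of Dbp, Hlf and Nfil3 held none. E-boxes elsewhere in or around these genes were not searched for, so a window without one does not mean a gene without one. The D-box letters TTANGTAA, searched on both strands, were in none of the 7 windows and in 2.06% of all. These matches are a description of the letters and not of binding. The stretches below lie on the minus strand at chr3:95882252-95882478 (Ciart) and chr6:145865559-145865670 (Bhlhe41) and on the plus strand at chr15:81811164-81811413 (the downstream start of Tef). They are the parts of those windows outside GENCODE exons, with E-boxes in capitals.
Ciart: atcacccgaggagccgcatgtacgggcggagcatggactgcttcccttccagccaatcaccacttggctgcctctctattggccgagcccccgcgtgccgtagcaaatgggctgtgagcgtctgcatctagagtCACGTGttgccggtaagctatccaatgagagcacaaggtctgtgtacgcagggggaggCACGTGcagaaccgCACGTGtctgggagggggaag
Bhlhe41: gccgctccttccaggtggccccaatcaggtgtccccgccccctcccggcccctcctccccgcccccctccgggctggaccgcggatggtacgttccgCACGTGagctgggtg
Tef: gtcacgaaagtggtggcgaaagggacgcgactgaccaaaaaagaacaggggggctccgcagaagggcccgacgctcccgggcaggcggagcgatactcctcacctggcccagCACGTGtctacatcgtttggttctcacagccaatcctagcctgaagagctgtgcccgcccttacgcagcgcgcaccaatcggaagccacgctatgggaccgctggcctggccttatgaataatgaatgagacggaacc

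Values are the authors' normalised counts, which follow gene length and are compared between libraries. Inferred depth was 23.8 to 27.9 M reads per library. Mapk14, which encodes p38α, lay at 142.7 to 156.7 in the controls, 40.3 to 45.5 in the p38α knockout and 37.0 to 54.7 in the p38α/γ knockout, and Mapk12, which encodes p38γ, at 137.9 to 152.2, 96.5 to 105.1 and 31.2 to 35.5. Mapk12 RNA was therefore also lower in the p38α knockout than in the controls (log2 difference −0.49, limma adjusted p = 0.006). The summed value of 12 skeletal muscle markers was 194600 to 212100 in the controls, 118900 to 173800 in the p38α knockout and 146800 to 152800 in the p38α/γ knockout. Library 1 of the p38α knockout stood apart. It correlated with the other libraries of its group at 0.961 to 0.976 across genes, where pairs in the other groups lay between 0.987 and 0.993. Calls of the 7 factors that change without it are given with and without it.

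In the p38α knockout, 5 of the 7 factors fell and none rose, where 10.4% of all tested genes were called lower and 7.32% higher (limma, Benjamini-Hochberg adjusted p below 0.05 over 13137 genes). Dbp, Hlf, Bhlhe40, Bhlhe41 and Ciart fell, and Tef and Nfil3 did not pass. Of the 7, only Bhlhe40 fell in the p38α/γ knockout, where 14.4% of all tested genes were called lower. In the direct comparison of the knockouts, Dbp and Bhlhe41 were lower in the p38α knockout, where 0.32% of all tested genes were called lower. All p38α knockout libraries lay below all controls for 6 of the 7, a pattern that 21.1% of tested genes showed. The same held for 2 of the 7 in the p38α/γ knockout, against 28.6% of tested genes. Between the knockouts it held for 5 of the 7, against 7.58%. The median log2 difference of the 7 was −0.81 in the p38α knockout, −0.26 in the p38α/γ knockout and −0.81 between the knockouts, beside 0.01, 0.02 and −0.01 over all tested genes. At an unadjusted p below 0.05, 6, 1 and 4 of the 7 were lower in these comparisons, where 18.1%, 20.9% and 6.33% of tested genes were. None of the 7 was higher at that threshold, where 15.9%, 20.1% and 5.65% of tested genes were. The knockout comparisons share the 3 control libraries and are not independent.

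**Figure D1:**
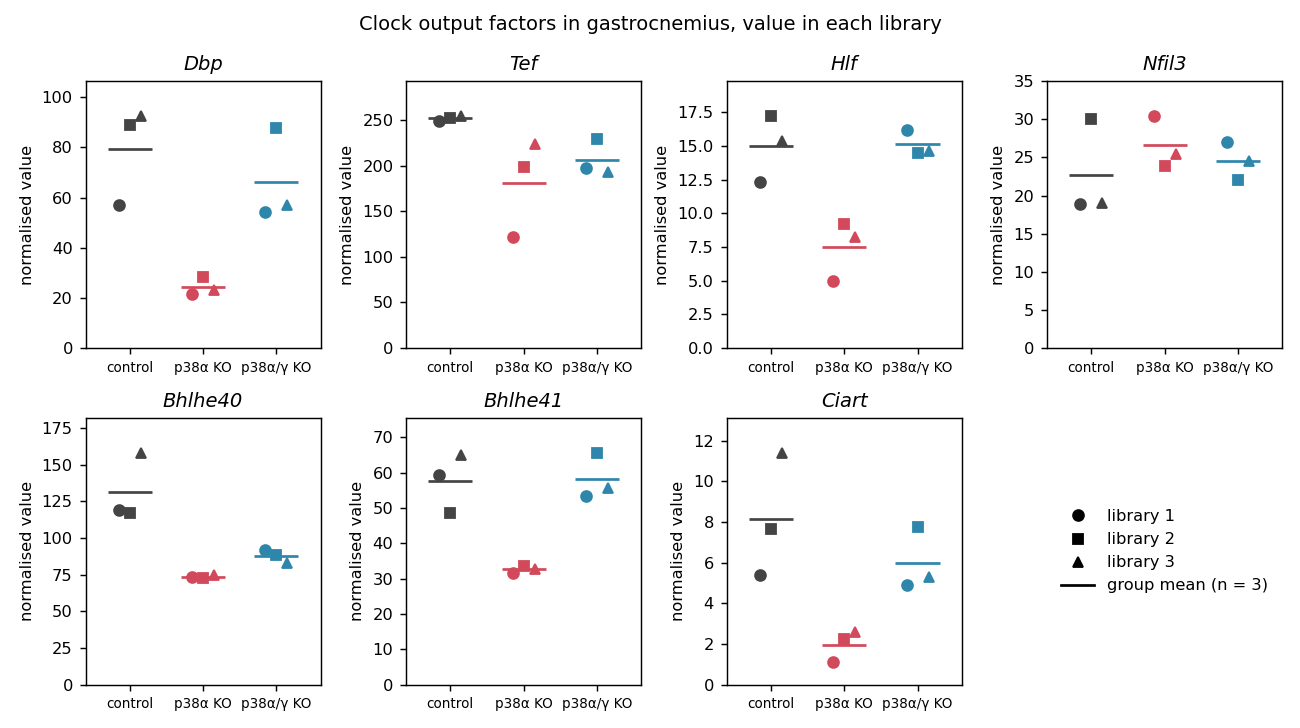
Normalised value (y axes, from 0, authors' normalised counts) of each of the 7 factors in each library, by group (x axes). Symbols mark the library number and bars the mean of 3 libraries. The p38α knockout libraries lie below every control for 6 factors, and Nfil3 overlaps in all groups.

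Dbp, the PAR factor with the widest daily swing in many tissues, was lowest in the p38α knockout. Its value was 57.2, 88.9 and 92.6 in control libraries 1 to 3, 21.5, 28.5 and 23.3 in the p38α knockout, and 54.4, 87.7 and 56.9 in the p38α/γ knockout. Every p38α knockout library lay below every library of the other groups, which overlapped each other. The p38α knockout held 30.7% of the control mean and the p38α/γ knockout 83.3%. Against control the difference of log2(value + 1) was −1.64 in the p38α knockout (SE 0.221, limma adjusted p = 0.00251), which placed Dbp at rank 128 of all tested genes by p. The p38α/γ knockout differed from control by −0.26 (95% interval −0.76 to 0.23, adjusted p = 0.39). The p38α knockout was lower than the p38α/γ knockout by 1.38 on that scale (SE 0.221, adjusted p = 0.0326). Exons of Dbp (ENSMUSG00000059824; chromosome 7, 45705088 to 45710203, plus strand, GRCm38) overlap those of Sphk2 on the other strand, whose mean was 15.0 in the controls, 16.9 in the p38α knockout and 14.4 in the p38α/γ knockout. Exons of Tef, Bhlhe40 and Bhlhe41 also overlap those of genes on the other strand (Gm17597, 0610040F04Rik and Gm43909), which the deposited table does not hold. The kit keeps strand, but whether reads were counted by strand is not given in the sources used here.

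Hlf, a second PAR factor, was also lowest in the p38α knockout. It measured 12.3, 17.2 and 15.4 in the controls, 4.997, 9.24 and 8.27 in the p38α knockout and 16.2, 14.5 and 14.6 in the p38α/γ knockout. The p38α knockout libraries again lay below all others, at 50.1% of the control mean, while the p38α/γ knockout stood at 100.9%. The log2 difference from control was −0.94 in the p38α knockout (SE 0.193, limma adjusted p = 0.013) and 0.02 in the p38α/γ knockout (95% interval −0.41 to 0.45, adjusted p = 0.938). The call in the p38α knockout was lost without control 2 (adjusted p = 0.0519) or control 3 (0.0524), in a range of 0.00781 to 0.0524 over the alternatives. Between the knockouts Hlf differed by −0.96, which did not pass (95% interval −1.39 to −0.53, adjusted p = 0.0759). Without p38α knockout 1 it passed (−0.72, adjusted p = 0.0123), and over the alternatives adjusted p ran from 0.0123 to 0.296. Hlf (ENSMUSG00000003949) lies on chromosome 11, 90336536 to 90390895, minus strand.

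Tef, the third PAR factor, had nearly equal control values of 249.1, 252.5 and 254.5. It measured 121.4, 198.4 and 223.3 in the p38α knockout and 197.4, 228.7 and 192.7 in the p38α/γ knockout. All 6 knockout libraries lay below all controls, and the knockouts overlapped each other. Neither difference from control passed (log2 −0.52, limma adjusted p = 0.0849, 95% interval −0.95 to −0.10 in the p38α knockout, and −0.29, adjusted p = 0.268, interval −0.72 to 0.13 in the p38α/γ knockout), and neither did that between the knockouts (−0.23, adjusted p = 0.66). Tef turned most on single libraries of the p38α knockout. Without p38α knockout 3 its difference was −0.70 (adjusted p = 0.0212), and without p38α knockout 1 it was −0.26 (adjusted p = 0.075), a range of 0.0212 to 0.189 over the alternatives. Without p38α knockout 1 the p38α/γ knockout difference passed at an unchanged −0.29 (adjusted p = 0.01735, range 0.0151 to 0.493), and so did it with the 6 libraries of those groups alone (adjusted p = 0.0151). Of all tested genes, 21.8% were called lower in the p38α/γ knockout without p38α knockout 1 and 22.8% with those 6 libraries alone. Tef (ENSMUSG00000022389) lies on chromosome 15, 81802421 to 81826863, plus strand, on the chromosome that also carries Mapk12.

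Nfil3, the repressor at D-boxes, was not lower in either knockout. Its value was 18.9, 30.1 and 19.0 in the controls, 30.4, 23.8 and 25.4 in the p38α knockout and 27.0, 22.1 and 24.5 in the p38α/γ knockout. The 3 groups overlapped, with control 2 far above the other controls and close to the highest knockout library. The log2 difference was 0.25 in the p38α knockout (95% interval −0.14 to 0.64, limma adjusted p = 0.347), 0.14 in the p38α/γ knockout (interval −0.25 to 0.53, adjusted p = 0.578) and 0.11 between them (interval −0.28 to 0.50, adjusted p = 0.833). Set against Nfil3 in the same library, Dbp stood at 3.03, 2.96 and 4.87 times the Nfil3 value in the controls, 0.705, 1.197 and 0.918 times in the p38α knockout and 2.02, 3.975 and 2.32 times in the p38α/γ knockout. This ratio of Dbp to Nfil3 RNA was lower in each p38α knockout library than in any other. So was Hlf to Nfil3 (0.164 to 0.388, against 0.573 to 0.808 in the controls and 0.597 to 0.658 in the p38α/γ knockout). Tef to Nfil3 overlapped, at 3.99 to 8.78 in the p38α knockout, 8.39 to 13.4 in the controls and 7.325 to 10.4 in the p38α/γ knockout. These ratios were not tested, and since values follow gene length they compare libraries and not genes. Nfil3 (ENSMUSG00000056749) lies on chromosome 13, 52967209 to 52981073, minus strand.

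Bhlhe40 was the factor that fell in both knockouts. It measured 119.0, 117.2 and 158.2 in the controls, 73.5, 72.9 and 74.9 in the p38α knockout and 92.1, 88.3 and 82.9 in the p38α/γ knockout. The groups did not overlap, with the p38α knockout lowest, the p38α/γ knockout between and the controls highest. The log2 difference from control was −0.81 in the p38α knockout (SE 0.115, limma adjusted p = 0.00313) and −0.56 in the p38α/γ knockout (adjusted p = 0.0108). Both calls held with each library left out, and adjusted p ran from 0.00295 to 0.0151 and from 0.00337 to 0.0497 over the alternatives. The difference between the knockouts did not pass (−0.25, 95% interval −0.50 to 0.01, adjusted p = 0.431). Bhlhe40 (ENSMUSG00000030103) lies on chromosome 6, 108660629 to 108666925, plus strand. BHLHE40 answers to many stimuli beside the clock, hypoxia among them.

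Bhlhe41, its close relative, fell in the p38α knockout and stood at the control level in the p38α/γ knockout. Its value was 59.3, 48.6 and 65.0 in the controls, 31.7, 33.5 and 32.7 in the p38α knockout and 53.5, 65.7 and 55.6 in the p38α/γ knockout. The p38α knockout libraries lay close together and below all others, while the other groups overlapped. The log2 difference from control was −0.79 in the p38α knockout (SE 0.119, limma adjusted p = 0.00374) and 0.02 in the p38α/γ knockout (95% interval −0.24 to 0.29, adjusted p = 0.908). The p38α knockout lay below the p38α/γ knockout by 0.81 (SE 0.119, adjusted p = 0.0184), rank 35 of all tested genes by p in that comparison. Bhlhe40 stood at 2.01 to 2.435 times the Bhlhe41 value in the controls, 2.18 to 2.32 times in the p38α knockout and 1.34 to 1.72 times in the p38α/γ knockout, so the 2 genes fell in like proportion in the p38α knockout and not in the p38α/γ knockout. That ratio was not tested. Bhlhe41 (ENSMUSG00000030256) lies on chromosome 6, 145858243 to 145865558, minus strand.

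Ciart, which encodes a repressor of CLOCK and BMAL1 and whose window above holds 3 E-boxes, was the scarcest of the 7 by value. It measured 5.41, 7.64 and 11.4 in the controls, 1.12, 2.24 and 2.58 in the p38α knockout and 4.89, 7.77 and 5.30 in the p38α/γ knockout. The p38α knockout libraries were again the lowest, at 24.3% of the control mean. These values stand for 133, 193 and 263 inferred reads in the controls and 30, 55 and 72 in the p38α knockout, so counting error is larger here than for the other factors. The log2 difference from control was −1.60 in the p38α knockout (SE 0.273, limma adjusted p = 0.00628), and it was −0.90 with a pseudocount of 5 (range of adjusted p over the alternatives 0.00512 to 0.0291). The p38α/γ knockout differed from control by −0.36 (95% interval −0.97 to 0.25, adjusted p = 0.34). Between the knockouts the difference of −1.24 did not pass (95% interval −1.85 to −0.63, adjusted p = 0.112) but did without p38α knockout 1 (−1.01, adjusted p = 0.0321, range 0.0321 to 0.362). Ciart (ENSMUSG00000038550) lies on chromosome 3, 95878503 to 95882251, minus strand.

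**Figure D2:**
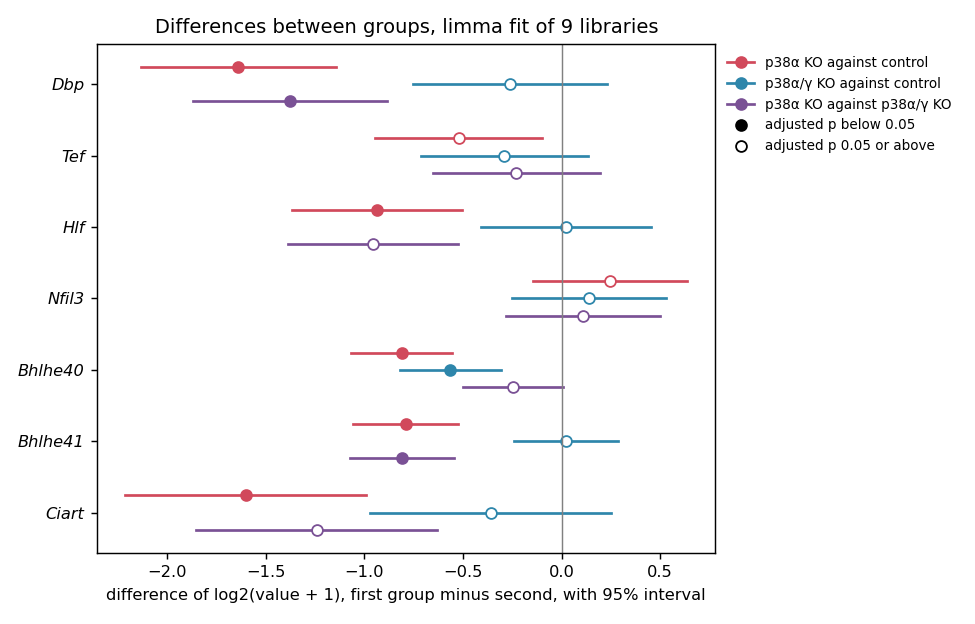
Difference of log2(value + 1) (x axis, first group minus second) for the 7 factors (y axis) in the 3 comparisons, with limma's 95% interval, not adjusted over genes. Filled points have an adjusted p below 0.05. Dbp, Hlf, Bhlhe41 and Ciart lie well below 0 against both other groups and their intervals include 0 in the p38α/γ knockout against control.

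The difference between the knockouts was the least firm of these results. The Dbp call was lost without control 2 (limma adjusted p = 0.0596), control 3 (0.0554), p38α knockout 2 (0.0815), p38α knockout 3 (0.0744) or p38α/γ knockout 1, 2 or 3 (0.0795, 0.102 and 0.127), and with the 6 libraries alone (0.0638), and kept without control 1 or p38α knockout 1 (0.0122 without the latter). The Bhlhe41 call was lost without p38α knockout 2 (0.0877) or p38α/γ knockout 1, 2 or 3 (0.0665, 0.0955 and 0.116) and with the 6 libraries alone (0.0503), in a range of 0.00834 to 0.116. The size of the difference moved little, from −1.50 to −1.16 for Dbp and from −0.87 to −0.72 for Bhlhe41 over the alternatives. The count of the 7 was 1 without control 2, control 3 or p38α knockout 3, 0 without p38α knockout 2 or any 1 of the p38α/γ knockout libraries, and 4 without p38α knockout 1 (Dbp, Hlf, Bhlhe41 and Ciart). In that last fit 6.54% of all tested genes were called lower in the p38α knockout. In the fits before it, with a count of 1 or 0, 13 to 52 genes were called in either direction, beside 58 in the main fit. With the 6 libraries alone the count of the 7 was 0, where 0.116% of tested genes were called lower. In the p38α knockout against control the count stayed at 5 without p38α knockout 1, where 10.9% of tested genes were called lower. It was 4 without control 2 or control 3 and 6 without p38α knockout 3. All called genes in either direction were 981, 801 and 3241 in those fits, beside 2332 in the main fit. These shifts are therefore not a result about the 7 alone.

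Compared per length of exon, the factors fell into an order that the p38α knockout changed. In the controls Tef (32.0 ± 0.348 per kb of exon; SD, n = 3), Bhlhe40 (27.9 ± 4.92) and Dbp (26.6 ± 6.50) were the most abundant. Bhlhe40 overlapped both of the others, while each Dbp library lay below each Tef library by this measure. Nfil3 (11.2 ± 3.17) and Bhlhe41 (8.57 ± 1.24) followed, also within their spread, and then Ciart (3.61 ± 1.34) and Hlf (2.24 ± 0.371), which overlapped. The p38α knockout mean of Dbp (8.17 ± 1.22 per kb) was under that of Nfil3 (13.1 ± 1.70), and every library had less Dbp than Nfil3 by this measure. In the p38α/γ knockout Dbp (22.2 per kb) was above Nfil3 (12.1 per kb), as in the controls. Exon length is the union of all annotated exons, so a gene with long rare exons is set too low.

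**Figure D3:**
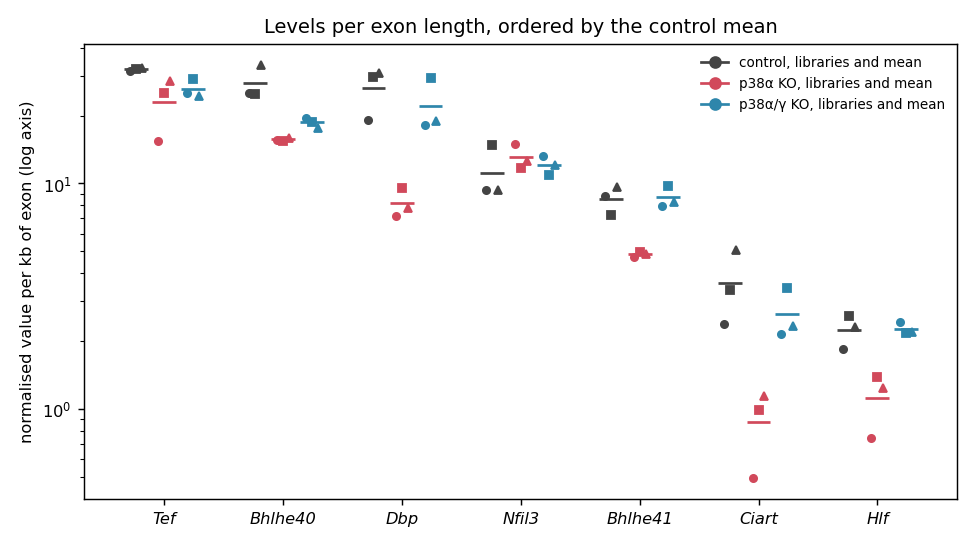
Normalised value per kb of annotated exon (y axis, log scale) for the 7 factors (x axis, ordered by the control mean) in the libraries of each group, with the group mean as a bar; circles, squares and triangles are libraries 1, 2 and 3. The p38α knockout libraries of Dbp lie below those of Nfil3, and the other groups' lie above.

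Across the 9 libraries Dbp, Hlf, Bhlhe41 and Ciart were the most like each other of the 7. The likeness of log2 values (Pearson correlation, a description over 9 libraries that share their groups) ran from 0.826 for Hlf and Bhlhe41 to 0.966 for Dbp and Ciart among these genes. Bhlhe40, which also fell, lay between 0.622 (Hlf) and 0.817 (Ciart) with them, and Tef, which did not pass, between 0.593 (Bhlhe41) and 0.7925 (Ciart). Nfil3 ran from −0.593 to −0.318 against the other 6. Of genes outside the 7, Dbp was most like Arl4a (0.969), Cers1 (0.958) and Dusp27 (0.953), and Arl4a (0.957) and Cers1 (0.954) were also among the 3 most like Ciart, after Tcte2 (0.958). Arl4a encodes a small GTPase of the ARF family and Cers1 a ceramide synthase. Bhlhe41 was most like Cacna2d4 (0.976), a calcium channel subunit, which measured 3.56 in the controls, 1.39 in the p38α knockout and 3.32 in the p38α/γ knockout on average. Bhlhe40 was most like Rnf130 (0.98), Srebf1 (0.979) and Rhobtb1 (0.974), whose means were also below control in both knockouts. Tef was most like Rcsd1 (0.98), Hlf like the phosphatase gene Ptp4a3 (0.941) and Nfil3 like Syde1 (0.917).

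The core loop that drives these factors was read from a list of 19 genes, of which 18 were tested. Of the 18, 5 fell in the p38α knockout and none rose, with a median of −0.22 on the log2 scale, beside 10.4% of all tested genes called lower. They were the period gene Per2 (−1.13, limma adjusted p = 0.0169), the cryptochrome gene Cry1 (−0.86, 0.00353), the nuclear receptor genes Nr1d1 (−0.47, 0.0269) and Nr1d2 (−0.91, 0.00128), which encode REV-ERBα and REV-ERBβ, and Rora (−0.91, 0.0234), which encodes their activating counterpart. All 5 are on the list of 8 clock genes with described D-boxes, the sites of DBP, TEF, HLF and NFIL3. The other 3 of that list (Per1, Per3 and Rorb) did not pass. In the p38α/γ knockout, where Dbp, Hlf and Tef did not pass, 2 of the 8 were called lower (list median −0.35). A link of these falls to those of the D-box factors was not tested. Per1 stood at 54.0, 60.5 and 74.5 in the controls and 18.7, 48.8 and 47.1 in the p38α knockout (−0.81, adjusted p = 0.0922, and 0.0421 without p38α knockout 3). Its p38α/γ knockout values of 48.3, 54.7 and 45.0 differed from control by −0.34 (adjusted p = 0.42), which passed without p38α knockout 1 (0.0409) and with the 6 libraries alone (0.0485). Of the activator genes, Arntl measured 0.39 above control (adjusted p = 0.432) and Npas2, which encodes a partner of BMAL1, 0.82 above (adjusted p = 0.0522), and neither passed. Npas2 passed without p38α/γ knockout 2 (0.0208) or p38α/γ knockout 3 (0.0446), with the 6 libraries alone (0.0335) and with a pseudocount of 5 (0.047). In the p38α/γ knockout, Cry1 (−0.80, adjusted p = 0.00522), Nr1d2 (−0.55, 0.00901) and Clock (−0.39, 0.02) fell. Arntl2, a relative of Arntl, was called higher (0.66, 0.0302) at values near the filter's limit of 1. It measured 1.03, 0.968 and 0.412 in the controls and 1.91, 2.04 and 1.495 in the p38α/γ knockout. It therefore passed the filter only through the knockouts, where it was higher, and this call carries little weight. The median of the 18 was −0.20, beside 14.4% of all tested genes called lower and 11.2% higher. Rora (−0.67, 0.0543) and Nr1d1 (−0.36, 0.0532) narrowly missed the threshold there, as did Clock in the p38α knockout (−0.30, 0.0581). Per2, which followed Dbp closely over the libraries (likeness 0.951), measured 6.58, 13.4 and 8.78 in the controls, 2.84, 4.51 and 3.82 in the p38α knockout and 6.78, 11.7 and 8.75 in the p38α/γ knockout, where it did not pass (−0.05, adjusted p = 0.89). None of the 18 passed between the knockouts (limma; 1 higher and 2 lower at an unadjusted p below 0.05), with Per2 at −1.08 (adjusted p = 0.138, and 0.0434 without p38α knockout 1).

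**Figure D4:**
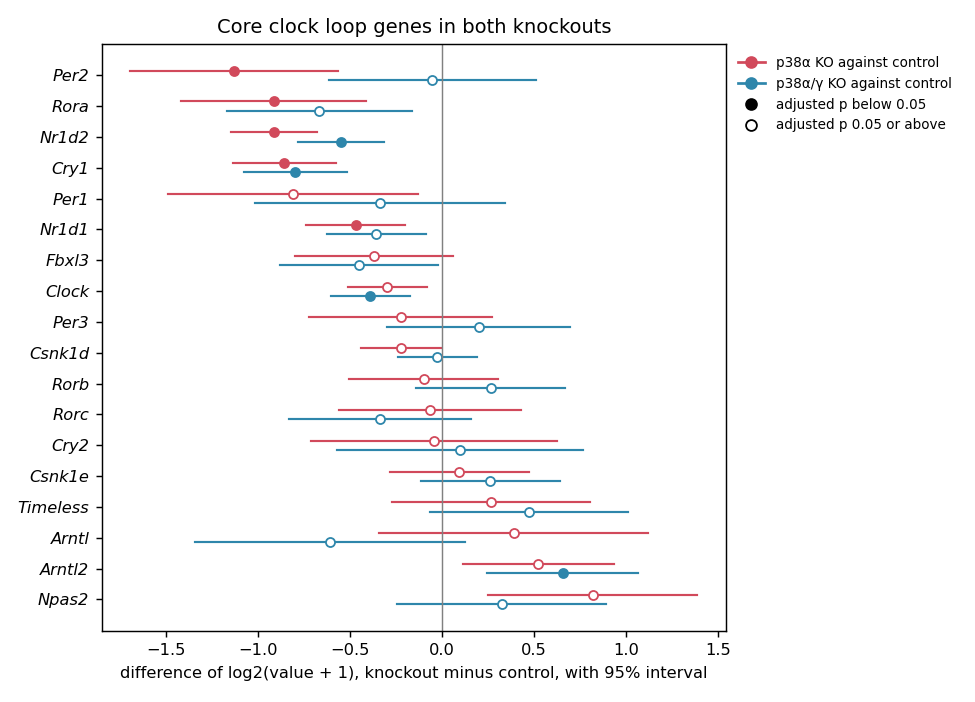
Difference of log2(value + 1), knockout minus control (x axis), for the 18 tested core clock genes (y axis), with limma's 95% interval, not adjusted over genes; filled points have an adjusted p below 0.05. Cry1 and Nr1d2 are filled in both knockouts, and Per2, Rora and Nr1d1 in the p38α knockout alone. Rora and Nr1d1 narrowly missed the threshold in the p38α/γ knockout (limma adjusted p = 0.0543 and 0.0532). None of the 18 passed when the knockouts were compared directly.

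Of these calls, Cry1 and Nr1d2 held in both knockouts under each of the 19 alternatives. In the p38α knockout, Per2 was lost without control 2 (limma adjusted p = 0.054) or control 3 (0.0553), Rora without control 1, 2 or 3 (0.0651, 0.0798 and 0.0712) or p38α knockout 2 (0.0563) or with the 6 libraries alone (0.0622), and Nr1d1 without control 1 or 3 (0.0977 and 0.108) or p38α knockout 2 (0.0761), with the 6 libraries alone (0.0584) or with quantile normalisation (0.0844). In the p38α/γ knockout, Clock was lost without control 1 or 3 (0.0812 and 0.0698) or p38α/γ knockout 2 or 3 (0.0838 and 0.0504), and Arntl2 without any 1 of the 6 libraries of those groups (up to 0.109) and with quantile normalisation (0.0794). The count of core genes in the p38α knockout was 3 without control 1, control 2 or p38α knockout 2, 2 without control 3, 9 without p38α knockout 3 and 5 without p38α knockout 1. For the p38α/γ knockout it was 2 without control 1, control 3 or p38α/γ knockout 2 or 3, 9 without p38α knockout 1 and 7 without p38α knockout 3. Calls over all genes moved as well, from 2332 to 3241 in the p38α knockout without p38α knockout 3. In the p38α/γ knockout they moved from 3368 to 5346 without p38α knockout 1 and to 4143 without p38α knockout 3. With 1 library left out the lowest were 801 and 844. The core counts are therefore not a result about the clock alone.

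Whole muscle holds other cells, in which fewer cells of a type and less RNA per cell cannot be told apart. Of all tested genes, 7.32% were called higher in the p38α knockout and 11.2% in the p38α/γ knockout, and 10.4% and 14.4% lower. Of 16 macrophage markers 12 rose in the p38α knockout and 15 in the p38α/γ knockout. Their summed value was 153.5 to 204.9 in the controls, 285.4 to 641.7 in the p38α knockout and 387.5 to 625.6 in the p38α/γ knockout, and none of the 16 was at 0. Of 9 fibro-adipogenic progenitor markers 1 rose in the p38α knockout and 5 in the p38α/γ knockout, with sums of 886.1 to 1132, 934.8 to 2004 and 1468 to 1963. The 12 muscle markers had 3 and 2 lower, the second near the share of all tested genes. Of 8 adipocyte markers Lep alone fell in the p38α knockout and none passed elsewhere. Their median log2 difference was −0.42 in the p38α knockout, 0.44 in the p38α/γ knockout and −0.97 between the knockouts. In that last comparison 3 of 8 were lower at an unadjusted p below 0.05 (limma), beside 6.33% of all tested genes. Their sums were 336.8 to 644.7 in the controls, 341.4 to 573.0 in the p38α knockout and 477.8 to 884.6 in the p38α/γ knockout. The part of any of these cell types in the falls was not tested. Endothelial sums were 390.4 to 419.6, 385.1 to 433.5 and 364.1 to 403.2.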

How the data were processed

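Polyadenylated RNA of 9 gastrocnemius samples with RIN above 8 was made into strand-keeping libraries from 100 ng and read as 51-base single reads, per the labels' protocols. CASAVA 1.8, cutadapt, RSEM 1.3.1, limma and GRCm38 are listed in the submitters' processing notes; how values were scaled and whether strand was used in counting are not given in the sources used here. The authors' deposited signal values are normalised counts, 1 per gene and library. In each library every value equalled the smallest times an odd whole number, and reads were inferred from that multiple to describe depth; no count test was run on them.

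Values of 1 or more in 3 or more libraries were required. log2(value + 1) was fitted in limma 3.58.1 (R 4.3.3) over all 9 libraries with a mean per group and a trended empirical Bayes variance. Calls required an adjusted p (Benjamini-Hochberg over all tested genes) below 0.05, and every adjusted p printed is limma's. An exact permutation test of 3 libraries against 3 reaches p = 0.1 at best and was not used. The scripts were tested on simulated data. Members and lists were chosen with earlier results of these data known. Named genes were the 7 factors, Mapk14 and Mapk12, the core clock genes, up to 4 genes of lowest p in each knockout comparison from the lists of clock outputs, glucocorticoid-induced genes and hypoxia-induced genes, and the 3 genes most like each factor. Alternatives changed the filter, pseudocount, scaling, trend, libraries fitted, block and threshold, and left out each library.

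Positions and exon lengths are from GENCODE M21 (13172 identifiers matched) and promoters from RefSeq GRCm38.p6. Figures were drawn with matplotlib 3.10.9. Same-numbered libraries of the p38α/γ knockout and control groups deviated together from their group means. Their r across genes was 0.111, 0.124 and 0.148 for numbers 1 to 3. In the other comparisons at least 1 such correlation was negative. Between the p38α/γ knockout and control groups, libraries with unlike numbers ran from −0.147 to 0.018, below the same-numbered ones. Between the knockouts, libraries with unlike numbers reached 0.35 (p38α knockout 2 with p38α/γ knockout 1). Taken over all 3 groups, these values do not establish pairs. The labels do not say what a number shares. The main fit had group means only, and a block by replicate number over all 9 libraries was an alternative.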

Additional observations from a re-analysis of the deposited data

How the results depend on the processing

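Differences of single genes were refitted under up to 19 alternatives each, 1156 values in all, of which 1011 kept their direction and their side of the threshold, 123 lost the call, 15 gained it and 7 changed sign. None of the 7 was called in either direction: Hlf in the p38α/γ knockout without control 1 (−0.10) or p38α/γ knockout 1 (−0.025), Bhlhe41 there without control 2 (−0.095) or p38α/γ knockout 2 (−0.067), Per2 there without control 2 (0.20) or p38α/γ knockout 1 (0.12), and Tef between the knockouts without p38α knockout 1 (0.033). With 1 library left out these ran from −0.10 to 0.12, −0.095 to 0.11, −0.27 to 0.20 and −0.40 to 0.033. In the order p38α knockout, p38α/γ knockout and the knockouts compared, all called genes were 2332, 3368 and 58. With the 6 libraries alone they were 1379, 5478 and 22, and at a threshold of 0.01 they were 582, 707 and 24. At 0.1 they were 3572 and 121 in the first and the third. With 1 library left out they ran from 801 to 3241, 844 to 5346 and 13 to 1862. Of the 7 factors, 2 were called in the p38α/γ knockout and 0 between the knockouts with the 6 libraries alone, and 0 in each at 0.01. With 1 library left out their count ran from 4 to 6, 1 to 2 and 0 to 4. Of the 18 core genes, called at 5, 4 and 0, the 6 libraries alone gave 9 in the p38α/γ knockout, a threshold of 0.01 gave 2 in each knockout, and 0.1 gave 9 in the p38α knockout. With 1 library left out they ran from 2 to 9, 2 to 9 and 0 to 2.

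With the replicate block, all called genes numbered 1555, 2320 and 32. The block changed no call of the 7 factors against control. Same-numbered libraries did not all deviate together in the comparisons with the p38α knockout. Between the knockouts, 1 of the 7 (Dbp, adjusted p = 0.0106) and 1 of the 18 core genes (Per2, 0.0137) were called. Bhlhe41 and Tcap were not (0.0831 and 0.0851). In the p38α knockout the block lost Hk2, Pdk1, P4ha1 and Egln1 (0.0619, 0.0562, 0.0663 and 0.0525) and gained Npas2 (0.0289). In the p38α/γ knockout it changed the call of Nampt alone (0.0686) among the genes refitted. The cause of these shifts was not tested. Without p38α knockout 1, called genes were 2350, 5346 and 1862. Of the 7 factors Ciart had the fewest inferred reads, 30 to 72 in the p38α knockout.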

Other observations

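Genes that the clock drives beyond these transcription factors were read from a list of 17 tested outputs. In the p38α knockout 4 fell and none rose, beside 10.4% of all tested genes lower and 7.32% higher. In the p38α/γ knockout 3 fell and none rose, beside 14.4% lower and 11.2% higher, so the share that fell was near that of all genes. The medians were −0.08 and −0.09 on the log2 scale. Tead1, which encodes a transcription factor, fell in both (−0.69 and −0.53, limma adjusted p = 0.00396 and 0.00987) under each of the 19 alternatives. Ucp3, a mitochondrial carrier gene, fell in the p38α knockout (−1.03, adjusted p = 0.0179), a call lost without control 1, 2 or 3 (0.0653, 0.0607 and 0.0515). Tcap, a sarcomere gene, fell there (−0.57, adjusted p = 0.0197, lost without control 1, control 3 or p38α knockout 2), as did the hexokinase gene Hk2 (−0.34, adjusted p = 0.0348, lost without any control or p38α knockout 2 or 3), with adjusted p up to 0.19 and 0.135 over their alternatives. Tcap was also the list's 1 call between the knockouts (−0.81, adjusted p = 0.0384, up to 0.236; lost without any control, p38α knockout 2 or 3, or p38α/γ knockout 2 or 3). Pdp1, a pyruvate dehydrogenase phosphatase gene, fell in the p38α/γ knockout (−0.80, adjusted p = 0.0127), a call lost without p38α/γ knockout 3 (0.0542). Nampt fell there too (−0.51, adjusted p = 0.0428). This call was lost without p38α knockout 2 or any control or p38α/γ knockout library (up to 0.146). It was also lost with a block by replicate number over all 9 libraries (0.0686).

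Glucocorticoids can set the clocks of peripheral tissues, and Bhlhe40 answers to hypoxia, so both lists were read. Of 15 glucocorticoid-induced genes the metallothionein genes Mt1 and Mt2 rose in the p38α knockout (2.25 and 2.38 on the log2 scale, limma adjusted p = 0.000516 and 0.00528), and in the p38α/γ knockout (2.15 and 2.40) under each of the 19 alternatives. Foxo1 rose in the p38α/γ knockout (0.59, adjusted p = 0.0477), a call lost without control 1 or 3, p38α knockout 2 or any p38α/γ knockout library (up to 0.158). The list's median was 0.43 in the p38α knockout and 0.05 in the p38α/γ knockout. Its summed value ran from 4093 to 5358 in the controls, 2747 to 8525 in the p38α knockout and 4281 to 5069 in the p38α/γ knockout. The p38α knockout libraries thus lay on both sides of the controls, and the median does not show a rise shared by them. In these knockouts 7.32% and 11.2% of all tested genes were called higher. Of 12 hypoxia-induced genes 3 fell in the p38α knockout, beside 10.4% of all tested genes called lower. They were Pdk1 (−0.36), P4ha1 (−0.37) and Egln1 (−0.36), with adjusted p = 0.0362, 0.0401 and 0.031. In the p38α/γ knockout P4ha1 fell (−0.39, adjusted p = 0.0265) and Adm rose (0.61, adjusted p = 0.0377). With 14.4% of all tested genes lower and 11.2% higher there, neither share of the list was above that of all genes. All 5 of these calls were lost without control 1 or control 3 and with quantile normalisation, and some without other libraries too, with adjusted p up to 0.151.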
